A study of Rattus norvegicus with 40 samples.

Results

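Glucose is made and handled in the liver by a small set of enzymes and a transporter, and 7 of their genes were followed here: Slc2a2, Pc, Pck1, Fbp1, G6pc1, Pklr and Pfkfb1. They were taken by name, as all probe sets of the array whose gene symbol was one of the 7. Of the 10411 genes with a probe set of their own, 6 were members, with 7 probe sets among them, since Pklr had a pair. G6pc1 had no probe set of its own. Its symbol stood on 4 probe sets that each carried 2 other symbols, Psme3 and Aoc3, so G6pc1 was kept out of every count and these shared probe sets are described apart.

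The RNA came from whole livers of young adult male rats, with 1 rat on each of 40 Affymetrix RAE230A arrays and 4 rats per group. Rats received by gavage either 100 ug/kg of TCDD (2,3,7,8-tetrachlorodibenzo-p-dioxin, the most potent dioxin) or corn oil alone, and livers were taken 19 h later. The 4 strains/lines were the dioxin-sensitive L-E (Long-Evans) and LnC (Line C), which carry a wild-type aryl hydrocarbon receptor (AHR), and the dioxin-resistant LnA (Line A) and H/W (Han/Wistar), whose AHR lacks a stretch of its transactivation domain. The lines descend from matings of L-E with H/W, so LnA differs from L-E and LnC in more than its receptor. A further 4 L-E and 4 H/W rats were sampled 3 h after the same dose of TCDD, with no corn oil group at 3 h. Per the study's methods the 4 rats of a treatment group shared 1 cage, so cage and treatment cannot be told apart in any comparison here, and the rats ate freely.

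Gluconeogenesis runs from pyruvate and amino acids to glucose. Pyruvate carboxylase (Pc) makes oxaloacetate in the mitochondrion, phosphoenolpyruvate carboxykinase (Pck1) turns oxaloacetate into phosphoenolpyruvate, fructose-1,6-bisphosphatase (Fbp1) removes a phosphate further up, and glucose-6-phosphatase (G6pc1) frees glucose in the endoplasmic reticulum, where the glucose-6-phosphate translocase Slc37a4 delivers its substrate. GLUT2 (Slc2a2) carries glucose across the hepatocyte membrane in either direction. Liver pyruvate kinase (Pklr) and the bifunctional enzyme Pfkfb1, which makes and breaks down fructose 2,6-bisphosphate, act on the glycolytic side, and Pklr is raised by feeding. TCDD is known to lower hepatic gluconeogenesis and feed intake in sensitive rats.

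The 250 bases upstream of the annotated start were read from RefSeq (assembly GRCr8, plus strand) for 6 of the 7 members. A pair of them is shown because Slc2a2 was the transporter whose signal separated the treatments and Pck1 was lower in all treated L-E rats, by widely differing amounts. Slc2a2 lies on chromosome 2 and the window is chr2:113540120-113540369. Pck1 lies on chromosome 3 and the window is chr3:182348322-182348571. Capitals mark TGTTCT, the core of glucocorticoid receptor sites, in Slc2a2, and TGACG, the core of cAMP response elements, in Pck1, where it lies on the other strand and reads CGTCA.
Slc2a2: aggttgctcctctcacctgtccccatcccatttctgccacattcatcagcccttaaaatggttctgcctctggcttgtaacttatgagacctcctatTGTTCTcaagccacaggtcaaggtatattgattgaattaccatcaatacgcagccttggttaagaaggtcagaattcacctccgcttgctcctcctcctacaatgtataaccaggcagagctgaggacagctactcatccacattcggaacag
Pck1: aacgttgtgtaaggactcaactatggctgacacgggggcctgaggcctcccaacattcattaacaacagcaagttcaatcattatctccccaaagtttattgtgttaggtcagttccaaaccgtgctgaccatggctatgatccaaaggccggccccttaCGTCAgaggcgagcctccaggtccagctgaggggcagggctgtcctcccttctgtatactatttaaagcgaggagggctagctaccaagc
Both strands were searched for these and for 3 further motifs. The AHR binds the core GCGTG, which was held by 25.9% of the 33469 rat promoter windows of this length. The forkhead motif GTAAACA was held by 3.21% of the windows and the E-box CACGTG by 5.59%. The shares were 17.5% for TGTTCT and 18.2% for TGACG. In Slc2a2 the marked motif began 153 bases before the start, and in Pck1 it began 90 bases before. Among the members GCGTG was found in the window of Fbp1 alone, 182 bases before the start, and the windows of G6pc1, Pklr and Pfkfb1 held none of the 5 motifs. These matches are letters in a window, not measured binding.

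Across the arrays the median signal lay between 3.52 and 3.76 on the log2 scale, and arrays of 1 group correlated with each other at 0.992 to 0.996 on average. Of 6 genes known to answer to dioxin, 6 were called higher after TCDD in L-E, LnC and LnA and 5 in H/W. The summed signal of 8 of 9 hepatocyte markers lay between 17.9 and 18.2 in every group, a sum in which albumin weighs most. Among them Cyp2e1, an ethanol-oxidizing cytochrome P450, was called lower after TCDD in L-E (-0.63, limma adjusted p = 0.00394). It differed by -0.80 for LnC, -0.44 for LnA and -0.59 for H/W, as Slc2a2 and Pc were lower on average in the same 4. Cyp2e1 does not stand for its list, whose median differences were 0.017 (L-E), -0.010 (LnC), -0.036 (LnA) and -0.066 (H/W). Those of all genes were 0.013, 0.0033, -0.015 and -0.040. Of the 8 markers, those higher on average numbered 5 for L-E, 3 for LnC and LnA alike and 1 for H/W. The summed signal of 9 of 12 macrophage and immune markers was 10.0 to 11.4 over the groups at 19 h. That of 9 of 10 stellate and endothelial markers was 10.5 to 11.2. The sum of 4 of 6 bile duct markers was 5.50 to 6.32 and that of 11 of 14 blood, pancreas, fat and muscle markers 10.8 to 13.1. In each strain/line the TCDD and corn oil ranges overlapped for every one of these 5 sums. Their part in the results was not tested. Whole tissue was measured, so fewer cells of a type and less RNA per cell cannot be told apart. The array files gave 5 scan days: the L-E and H/W arrays at 19 h spread over 3 of them with both treatments on each, all LnA and LnC arrays fell on 1 day, and all arrays at 3 h on another.

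Each gene was tested within a strain/line with limma over all 10411 genes, and called at an adjusted p (Benjamini-Hochberg) under 0.01. By that rule 1 of the 6 members was called in L-E (Slc2a2, lower, beside 2.06% of all genes called), 0 in LnC (1.13% of all genes), 1 in LnA (Pc, lower, beside 1.09%) and 0 in H/W (0.423%). At an adjusted p under 0.05 there were 2 members in L-E (Pc and Slc2a2, beside 6.49% of all genes), 1 in LnC (Pc, 3.63%), 2 in LnA (Pc and Slc2a2, 3.21%) and 1 in H/W (Fbp1, 1.48%). At an unadjusted p under 0.05 they numbered 3 for L-E (18.9% of all genes), 3 for LnC (14.9%), 3 for LnA (14.2%) and 4 for H/W (12.1%). Members whose TCDD rats all lay below the corn oil rats were Pck1, Pc and Slc2a2 for L-E (5.95% of all genes), Pc and Slc2a2 for LnC (4.55%), Pc, Fbp1 and Slc2a2 for LnA (4.08%) and Fbp1 and Slc2a2 for H/W (4.79%). No member was called higher after TCDD at 19 h. These fits took the rats as unpaired, and with the rat number as a replicate block the LnA count at 0.01 was 0.

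Slc2a2 was lower after TCDD in every rat of all 4 strains/lines. In L-E the corn oil rats gave log2 signals of 11.29, 10.90, 11.20 and 11.35 and the TCDD rats 10.02, 9.38, 9.75 and 9.71. In LnC they were 11.22, 11.42, 11.37 and 10.93 with corn oil and 8.82, 9.63, 10.39 and 10.31 with TCDD. Corn oil was tight in both, while the LnC rats given TCDD spread over more than a doubling, rat 1 lowest. In LnA the corn oil values were 10.93, 11.45, 11.38 and 11.33 and the TCDD values 9.89, 10.44, 10.46 and 10.14. In H/W they were 11.53, 10.96, 11.35 and 11.11 against 10.32, 9.93, 10.02 and 10.70. The 16 corn oil rats (10.90 to 11.53) lay above all 16 TCDD rats (8.82 to 10.70), a separation that held for no other member and for 0.279% of all genes.

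The TCDD minus corn oil difference of Slc2a2 in L-E was -1.47 (SE 0.15, 95% interval -1.83 to -1.11), a 2.77-fold fall with a limma adjusted p of 0.00317. With 1 rat left out the call was lost without corn oil rat 1, 3 or 4 or TCDD rat 3 or 4, where the limma adjusted p reached at most 0.0140. In LnC the difference was -1.45 (SE 0.35), almost as large, but the spread of the treated rats left the limma adjusted p at 0.0755. The LnA value was -1.04 (SE 0.16, limma adjusted p = 0.0154) and the H/W value -0.998 (SE 0.19, limma adjusted p = 0.0555). Groups did not overlap in any of the 4 strains/lines, which was so for 0.826% of all genes in the lower direction. Within scan days the L-E difference was -1.27 on the day with 1 rat per treatment and -1.53 on the day with 3, and in H/W it was -1.21, -1.18 and -0.41 on 3 days. The sign was the same on each day, and the last H/W value came from 1 rat per treatment.

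Over the 32 arrays at 19 h the genes whose signals followed Slc2a2 most closely were Slco1a4, an organic anion transporter (Pearson r = 0.928), Slc10a1, the bile acid importer NTCP (r = 0.904), and Rnase4, a secreted ribonuclease (r = 0.902). These arrays share treatment and strain, so the values describe likeness of pattern over the 8 groups.

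**Figure D1:**
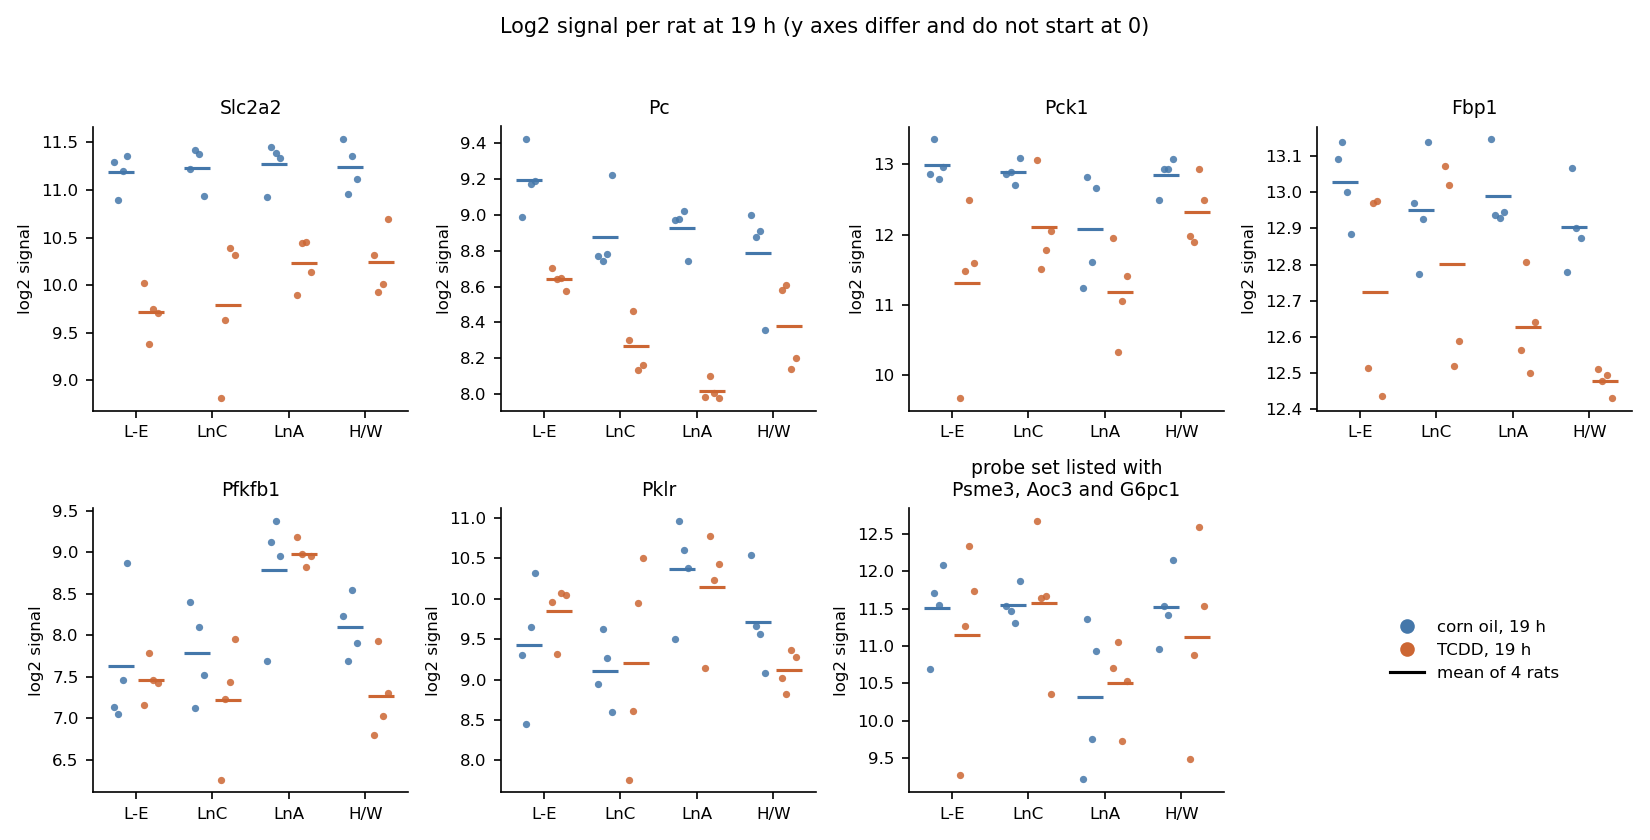
Log2 signal (vertical axis) of 6 members and of the shared probe set with a G6pc1 accession at 19 h in each strain/line, 1 point per rat, with the group mean as a bar, for corn oil and TCDD. Slc2a2 is the member whose 16 TCDD rats (8.82 to 10.70) all lie below its 16 corn oil rats (10.90 to 11.53), while Pklr and Pfkfb1 overlap in each strain/line.

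Pc, which feeds carbon from pyruvate into the pathway, was lower after TCDD on average in each strain/line by less than a doubling. In LnA the corn oil rats gave 8.97, 8.98, 9.02 and 8.74 and the TCDD rats 7.98, 8.10, 8.00 and 7.98. In L-E they were 8.99, 9.42, 9.17 and 9.19 against 8.70, 8.64, 8.65 and 8.58, and in LnC 8.77, 8.74, 8.78 and 9.22 against 8.30, 8.46, 8.13 and 8.16. In these 3 the treated rats lay below the corn oil rats without overlap. In H/W the values were 9.002, 8.88, 8.91 and 8.36 with corn oil and 8.58, 8.61, 8.14 and 8.20 with TCDD, where corn oil rat 4 lay among the treated rats.

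The LnA difference of Pc was -0.91 (SE 0.066), a 1.88-fold fall, with a limma adjusted p of 0.00103, and of 0.0119 with the rat number as a replicate block, which ends the call. Leaving out any 1 of the 8 rats kept the limma adjusted p at or under 0.00666. The differences in L-E (-0.55, SE 0.086, limma adjusted p = 0.0133) and LnC (-0.61, SE 0.13, limma adjusted p = 0.0478) did not reach the threshold, nor did that in H/W (-0.40, SE 0.17, limma adjusted p = 0.405). Within scan days Pc differed by -0.29 and -0.64 in L-E. The genes most like Pc over the 32 arrays were Slc27a5, a bile acid and fatty acid acyl-CoA ligase (r = 0.818), Foxn3, a forkhead factor (r = 0.811), and Slco1a1, an organic anion transporter (r = 0.805).

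Pck1, the cytosolic enzyme often taken as the rate-setting step, was lower on average after TCDD in each strain/line, with treated rats that differed widely (SD 1.18 for L-E, 0.68 for LnC and LnA alike and 0.48 for H/W). In L-E the corn oil rats gave 12.86, 13.35, 12.79 and 12.95 and the TCDD rats 9.68, 11.48, 12.49 and 11.60. The groups did not overlap, but TCDD rat 1 lay far below the others. In LnC the values were 12.86, 12.88, 12.70 and 13.09 against 13.06, 11.51, 11.78 and 12.05, and rat 1 given TCDD stood level with corn oil. In LnA corn oil itself was split, at 11.24, 12.82, 11.61 and 12.66, against 11.95, 10.34, 11.06 and 11.41 with TCDD. In H/W the values were 12.49, 12.92, 12.93 and 13.07 against 11.98, 11.89, 12.93 and 12.49.

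The mean difference of Pck1 was widest in L-E, at -1.68 (SE 0.55, 3.19-fold, limma adjusted p = 0.147). The LnC value was -0.78 (SE 0.32, limma adjusted p = 0.300), the LnA value -0.90 (SE 0.46, limma adjusted p = 0.478) and the H/W value -0.53 (SE 0.24, limma adjusted p = 0.444). None passed the test, and in LnC, LnA and H/W the groups overlapped. The L-E value rested in part on 1 rat: within scan days it was -3.18 where rat 1 of each treatment was scanned and -1.17 among the other 6, and leaving out TCDD rat 1 moved the L-E difference to -1.13.

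Fbp1 differed between treatments by less than 0.5 log2 units in each strain/line. In H/W the corn oil rats gave 12.78, 13.07, 12.90 and 12.87 and the TCDD rats 12.51, 12.48, 12.49 and 12.43, which did not overlap. In LnA the values were 13.15, 12.94, 12.93 and 12.95 against 12.56, 12.81, 12.50 and 12.64, again without overlap. In L-E (13.09, 13.14, 13.00 and 12.88 against 12.51, 12.97, 12.97 and 12.43) and LnC (12.97, 12.77, 12.93 and 13.14 against 13.07, 13.02, 12.52 and 12.59) a pair of treated rats lay among the corn oil rats. The H/W difference was -0.43 (SE 0.063, limma adjusted p = 0.0211) and the LnA difference -0.36 (SE 0.079, limma adjusted p = 0.0577). They were -0.31 in L-E (limma adjusted p = 0.320) and -0.15 in LnC, and no strain/line passed the threshold.

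The probe set whose accession is a G6pc1 transcript, 1 of the 4 shared ones, overlapped between treatments in each strain/line. In L-E it read 10.69, 11.71, 11.54 and 12.09 with corn oil and 9.28, 11.27, 12.33 and 11.73 with TCDD, the lowest rat being the one lowest for Pck1. In LnC it read 11.54, 11.46, 11.31 and 11.86 against 12.67, 11.64, 11.67 and 10.35, in LnA 9.21, 11.37, 9.76 and 10.93 against 10.70, 11.06, 9.72 and 10.53, and in H/W 10.96, 11.54, 11.42 and 12.15 against 9.49, 10.88, 12.59 and 11.53. From a limma fit over all 15866 probe sets the differences ran from -0.40 in H/W (SE 0.62) to 0.19 in LnA (SE 0.52), and the narrowest 95% interval was -1.01 to 1.08, in LnC. Each of the 4 intervals held a change of 1 log2 unit in either direction. The accessions of the other 3 shared probe sets were not matched to a gene here. The one with a mean log2 signal of 7.54 read higher on average after TCDD in each strain/line, by 0.39 for both L-E and LnC, 0.37 for LnA and 0.33 for H/W. Its groups did not overlap in LnA, where the limma adjusted p was 0.0582. Differences ran from -0.42 to 0.055 for the one at 10.40 and from 0.020 to 0.71 for the one at 6.32, with overlap in each strain/line, and none of the 3 was called. In 7 of the 10 groups the rat highest for Pck1 was also highest for the probe set with a G6pc1 accession, and in 4 of 10 the lowest rat was the same.

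On the glycolytic side neither Pklr nor Pfkfb1 passed the test at 19 h. Pklr in L-E read 9.30, 8.46, 9.65 and 10.32 with corn oil and 9.96, 9.31, 10.08 and 10.04 with TCDD, and in LnC 8.95, 9.63, 9.26 and 8.60 against 7.76, 8.62, 9.95 and 10.51. The LnC rats given TCDD spread over more than 2 log2 units. In LnA the values were 9.51, 10.96, 10.60 and 10.38 against 9.15, 10.78, 10.23 and 10.43, and in H/W 10.54, 9.66, 9.57 and 9.09 against 9.02, 8.82, 9.36 and 9.28. The L-E difference was 0.42 (limma adjusted p = 0.670), that in LnC 0.10, that in LnA -0.22 and that in H/W -0.59 (limma adjusted p = 0.480). The other Pklr probe set ranked the rats alike, with the same lowest rat in 9 of 10 groups and the same highest in 8.

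Pfkfb1 in L-E read 7.13, 7.06, 7.46 and 8.87 with corn oil and 7.16, 7.78, 7.46 and 7.42 with TCDD, and in LnC 8.40, 7.12, 8.10 and 7.53 against 6.26, 7.23, 7.44 and 7.95. In LnA it read 7.69, 9.13, 9.37 and 8.95 against 9.19, 8.97, 8.82 and 8.95, and in H/W 8.23, 7.69, 8.55 and 7.91 against 6.81, 7.94, 7.03 and 7.31. All 4 pairs of groups overlapped. The L-E difference was -0.17, that in LnC -0.57, that in LnA 0.20 and that in H/W -0.83 (SE 0.28, limma adjusted p = 0.264).

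**Figure D2:**
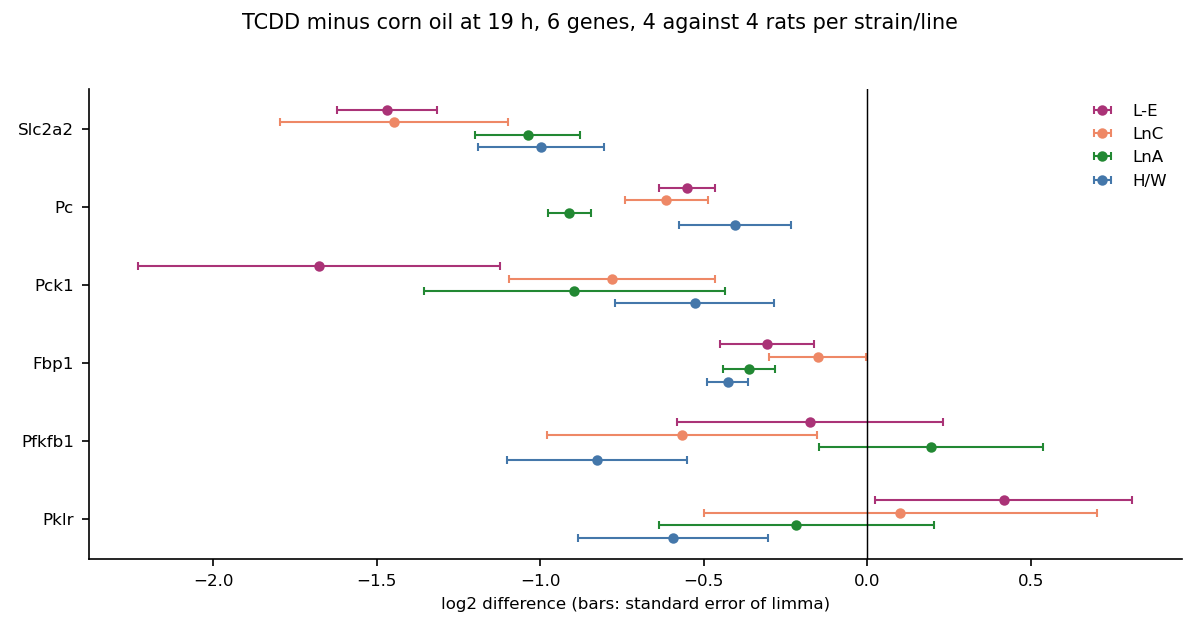
TCDD minus corn oil difference in log2 signal at 19 h (horizontal axis) of 6 members in each strain/line, 1 point each, with the standard error from limma on either side as a bar. All differences of Slc2a2, Pc, Pck1 and Fbp1 lie below 0, from -1.68 (Pck1, L-E) to -0.15 (Fbp1, LnC), and those of Pklr and Pfkfb1 lie on both sides.

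Whether sensitive and resistant rats differed in their response was asked by interaction terms. None of the 6 members was called for the sensitive minus resistant term over the 32 arrays (0.0961% of all genes were), for L-E minus H/W (0.0384%) or for LnC minus LnA (0.0768%), and 0 reached an unadjusted p under 0.05 in limma in any of the 3 (7.93%, 9.7% and 4.76% of all genes did). For Slc2a2 the sensitive minus resistant term was -0.44 (SE 0.24, 95% interval -0.94 to 0.062, limma adjusted p = 0.581). For Pc it was 0.076 (95% interval -0.19 to 0.34), so a difference in response beyond that width lay outside the interval. The widest terms between L-E and H/W were those of Pck1 at -1.15 (SE 0.62) and Pklr at 1.01 (SE 0.51), with a limma adjusted p of at least 0.533. Without L-E TCDD rat 1 the Pck1 term was -0.60. Between LnC and LnA Pc differed by 0.30 (95% interval -0.021 to 0.62). The call of Slc2a2 in L-E and of Pc in LnA is thus not shown to be particular to those rats.

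In corn oil rats Pck1 read lowest on average in LnA, and Pfkfb1 and Pklr read highest there. Over the 4 groups 0 of 6 members were called by the limma F test, beside 4.6% of all genes, and Pck1 alone had an unadjusted p under 0.05, as did 26.4% of all genes (0.0275, limma adjusted p = 0.134). By mean log2 signal Pck1 stood highest in L-E (12.99), then LnC (12.88) and H/W (12.85), and lowest in LnA (12.08). The first 3 lay within their spread (SD 0.16 to 0.25), and the LnA mean had an SD of 0.77 because rats 1 and 3 were low. Slc2a2 means lay between 11.18 in L-E and 11.27 in LnA, no neighbours differing beyond their spread. Pfkfb1 means ran from 7.63 in L-E to 8.79 in LnA and Pklr means from 9.11 in LnC to 10.36 in LnA. Of 36 pairwise tests 9 had an unadjusted p under 0.05 in limma, among them Pck1, Pfkfb1 and Pklr in both LnC minus LnA and LnA minus L-E, and 0 were called. The share of all genes in these pairs is not given here, so whether 9 is more than usual cannot be read from it. The lowest limma adjusted p was 0.0618, for Pck1 in LnA minus L-E (-0.91, SE 0.29). In the same pair Pfkfb1 differed by 1.16 (limma adjusted p = 0.103) and Pklr by 0.93 (limma adjusted p = 0.140). Of 9 measured genes known to rise after a meal, 8 were higher in LnA than in L-E corn oil rats, with a median difference of 1.13 beside 0.063 over all genes. The LnA arrays were scanned on another day than the L-E arrays, so line, scan day and cage cannot be told apart in that pair, and the part of feeding was not tested.

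At 3 h after TCDD Pc, Pck1, Fbp1 and Slc2a2 read near the corn oil levels of 19 h, while Pfkfb1 read far higher. Pklr averaged 10.82 in L-E at 3 h against 9.43 with corn oil at 19 h, and 10.05 against 9.71 in H/W. The probe set with a G6pc1 accession averaged 12.53 against 11.51 in L-E and 11.31 against 11.52 in H/W. Pc lay between 8.37 and 9.09 and Fbp1 between 12.85 and 13.05 over the 8 rats. Pfkfb1 read 9.73, 10.00, 10.45 and 9.40 in L-E and 9.69, 9.87, 9.98 and 9.86 in H/W. Each of these 8 rats lay above all 32 rats at 19 h, of which the highest read 9.37, as for 0.25% of all genes. Slc2a2 read 11.52, 11.51, 11.16 and 11.31 in L-E and 11.08, 11.33, 11.59 and 11.04 in H/W, all within or just above the corn oil range. Pck1 read 12.93, 12.94, 12.56 and 12.91 in L-E and 12.85, 12.41, 12.71 and 13.11 in H/W, without the low rats seen at 19 h.

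Between 19 and 3 h in L-E, 2 of 6 members were called, both lower at 19 h, beside 4.01% of all genes. These were Pfkfb1 (-2.44, SE 0.23, limma adjusted p = 0.00162) and Slc2a2 (-1.66, SE 0.15, limma adjusted p = 0.00123). In H/W 3 of 6 were called lower at 19 h, beside 5.15% of all genes: Pfkfb1 (-2.58, SE 0.23, limma adjusted p = 0.000848), Fbp1 (-0.49, SE 0.037, limma adjusted p = 0.000471) and Pklr (-0.93, SE 0.12, limma adjusted p = 0.00382). The calls of Pfkfb1 in both strains, Slc2a2 in L-E and Fbp1 in H/W held with any 1 rat left out, while that of Pklr was lost without any 1 of the 4 rats at 3 h or without 19 h rat 1 (limma adjusted p at most 0.0135). All of these calls were lost with the replicate block, at a limma adjusted p of up to 0.0161 in L-E and 0.0322 in H/W. Slc2a2 in H/W (-1.02, limma adjusted p = 0.0166, or 0.00967 without 19 h rat 4) and Pklr in L-E (-0.97, limma adjusted p = 0.0362) had groups that did not overlap but missed the threshold. In all, 4 of 6 members lay lower at 19 h without overlap in L-E (Pck1, Pfkfb1, Pklr and Slc2a2, beside 8.15% of all genes) and 4 in H/W (Fbp1, Pfkfb1, Pklr and Slc2a2, beside 8.01%). The 19 h TCDD rats of these comparisons are those of the comparisons with corn oil, so the Slc2a2 values are not separate evidence. All 3 h arrays had a scan day of their own and no corn oil rats, so time, scan day and the course of the day cannot be told apart.

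Between the strains at 3 h, 0 of 6 members were called, beside 2.18% of all genes. Pklr was nearest, reading 10.36, 11.09, 10.99 and 10.85 in L-E and 10.21, 9.99, 9.99 and 10.00 in H/W without overlap, as 8.79% of all genes were higher in L-E. Its difference was 0.77 (SE 0.16, limma adjusted p = 0.0331, under 0.05 as for 6.68% of all genes), and that of its other probe set 1.14 (SE 0.21, limma adjusted p = 0.0246). Without L-E rat 1 the limma adjusted p of Pklr was 0.00472. The probe set with a G6pc1 accession read 12.03, 12.72, 12.52 and 12.84 in L-E and 11.32, 10.97, 10.49 and 12.47 in H/W, a difference of 1.22 (limma adjusted p = 0.104). All 9 measured genes known to rise after a meal were higher in L-E at 3 h, 2 of them called, with a median of 1.15 beside -0.043 over all genes, and the immune marker sum was 11.1 to 11.7 in L-E and 10.1 to 10.8 in H/W. The part of either in the Pklr value was not tested.

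**Figure D3:**
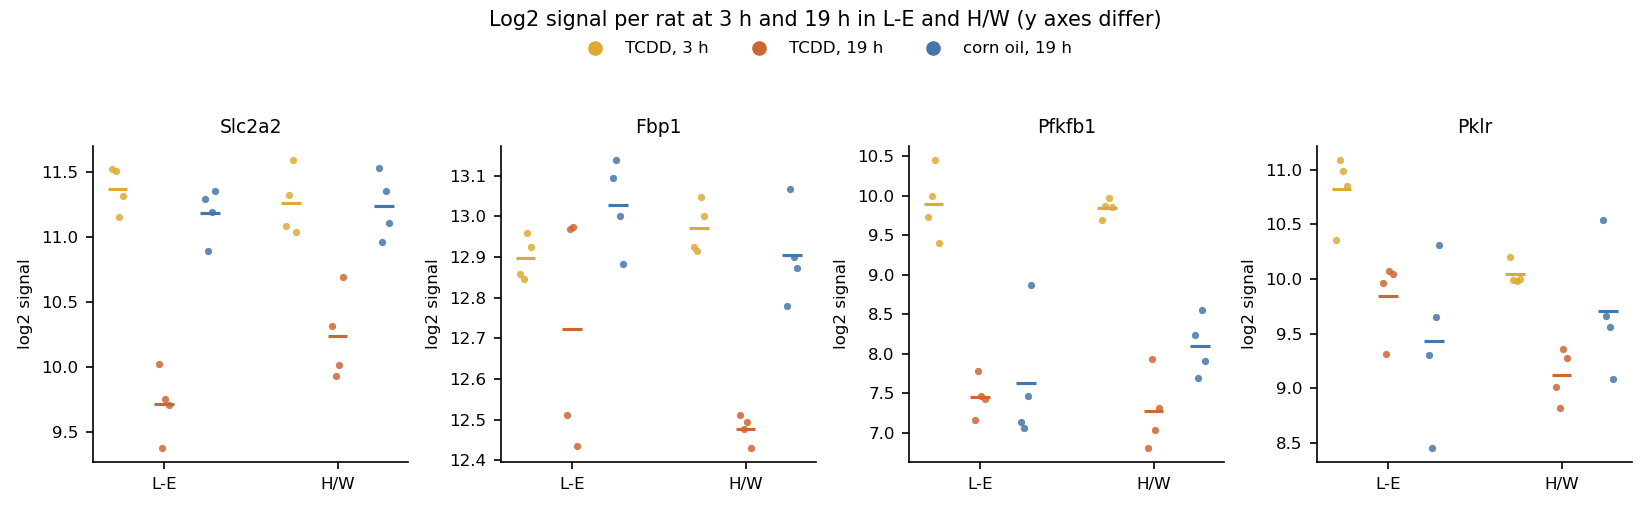
Log2 signal (vertical axis) of Slc2a2, Fbp1, Pfkfb1 and Pklr in L-E and H/W rats, 1 point per rat and the group mean as a bar, for TCDD at 3 h, TCDD at 19 h and corn oil at 19 h. Pfkfb1 at 3 h (9.40 to 10.45) lies above all its 19 h values, while Slc2a2 at 3 h (11.04 to 11.59) lies near its corn oil values.

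Beyond the members, 5 lists of other genes of glucose metabolism were counted. Of 20 other gluconeogenesis genes 3 were called in at least 1 strain/line at 19 h, of 27 glycolysis and pyruvate genes 1, of 13 glycogen genes 2, of 11 fructose and pentose phosphate genes 1, and of 35 regulators 3. Together they made 10 of 106 genes (9.43%), beside 3.27% of all genes called in at least 1 strain/line. The share of the glycolysis and pyruvate list (3.7%) was near that background. Tiparp, counted with the regulators, is also among the genes known to answer to dioxin used as a check above. The lists were chosen with earlier results of these data known. For both reasons the shares cannot tell whether genes of glucose metabolism were called more often than others. The list medians in the 4 strains/lines lay between -0.11 and 0.015, beside -0.040 to 0.013 for all genes. None of these genes was called for the sensitive minus resistant term.

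Slc37a4, which brings glucose 6-phosphate to G6pc1, was, like Slc2a2, lower without overlap within each strain/line, as for 0.826% of all genes. Unlike Slc2a2, its treatments overlapped across strains/lines: the lowest corn oil rat read 9.54 (H/W) and the highest TCDD rat 9.72 (LnC). Its mean signal was 10.38 with corn oil and 8.99 with TCDD in L-E, 10.09 and 9.28 in LnC, 10.24 and 9.28 in LnA, and 10.20 and 9.17 in H/W, with no overlap between treatments in 4 of 4 strains/lines. It fell in L-E (-1.38, SE 0.16, limma adjusted p = 0.00458) and in LnA (-0.96, SE 0.12, limma adjusted p = 0.00866, or 0.0267 with the replicate block, which ends that call). In LnC (-0.80, limma adjusted p = 0.0622) and H/W (-1.04, limma adjusted p = 0.0714) it missed the threshold. Ldha, lactate dehydrogenase A, was higher without overlap in 4 of 4, by 0.40 (L-E), 0.61 (LnC), 0.45 (LnA) and 0.34 (H/W), and was called in LnA (limma adjusted p = 0.00731, or 0.0335 with the replicate block). The share of all genes higher without overlap in all 4 is not given here, so whether such a rise is unusual cannot be told. Sds, serine dehydratase, which makes pyruvate from serine, was called lower in LnA (-0.37, limma adjusted p = 0.00328, or 0.0267 with the replicate block) at a dim 2.88 against 3.25. In 1 fit over the 8 groups its limma adjusted p was 0.916. At 3 h after TCDD Sds read 9.51 to 12.17 in L-E and 10.88 to 12.36 in H/W. Its corn oil means at 19 h were 4.65 in L-E and 4.43 in H/W. With no corn oil rats at 3 h, time, scan day and the course of the day cannot be told apart, and the part of TCDD was not tested. With 1 rat left out the Slc37a4 call was lost in 7 of 8 cases in L-E (all but TCDD rat 2, limma adjusted p up to 0.0191) and 6 of 8 in LnA (all but TCDD rats 1 and 2, up to 0.0311), the Ldha call in 8 of 8 (up to 0.0293) and the Sds call in 7 of 8 (all but corn oil rat 4, up to 0.0158).

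Calls in the remaining lists mostly came in 1 strain/line each. In L-E Pgm1, phosphoglucomutase, fell by 0.52 (limma adjusted p = 0.00316), Glyctk, glycerate kinase, fell by 0.49 (limma adjusted p = 0.00945) and Cebpa, a liver transcription factor that drives gluconeogenic genes, fell by 0.87 (limma adjusted p = 0.00234). In LnC Pdha1, a subunit of pyruvate dehydrogenase, fell by 0.54 (limma adjusted p = 0.00398), and in H/W Gaa, lysosomal glucosidase, rose by 0.74 (limma adjusted p = 0.00428). A call in 1 strain/line does not show that the others lacked the response. In LnC, LnA and H/W Pgm1 differed by -0.34, -0.28 and -0.43, Cebpa by -0.73, -0.58 and 0.10, and Glyctk by 0.0045, -0.0095 and -0.21. Pdha1 differed by -0.096 in L-E, -0.35 in LnA and -0.34 in H/W, and Gaa by 0.079 in L-E, 0.20 in LnC and 0.29 in LnA. Nr1h3, the oxysterol receptor LXR alpha, was higher without overlap in all 4 strains/lines, where the share of all genes is again not given. It was called in LnC (0.63, limma adjusted p = 0.0022) and H/W (0.97, limma adjusted p = 0.00188). Tiparp, the ADP-ribosyltransferase that AHR induces, rose in all 4, by 3.08 (LnA) to 4.37 (H/W), and the LnA call had a limma adjusted p of 0.0195 with the replicate block. With 1 rat left out the Cebpa call and the L-E call of Tiparp held in 8 of 8 cases. The other calls of this paragraph were each lost in 2 to 8 of 8 cases, with limma adjusted p up to 0.0327. Under the other alternatives the Glyctk call was lost in 8 of 10 (limma adjusted p up to 0.0698), the Pdha1 call in 5 of 9 (up to 0.0408) and the Gaa call in 4 of 10 (up to 0.0331). The Cebpa call was lost in 2 of 10 (up to 0.0380) and the Pgm1 call in 1 of 10 (up to 0.0296). Nr1h3 lost its call in 1 of 9 in LnC (up to 0.0535) and 2 of 10 in H/W (up to 0.0204). Tiparp lost its call in 1 of 9 in LnC (up to 0.0380), 3 of 9 in LnA and 2 of 10 in H/W (up to 0.0396). With probe sets averaged per gene Pdha1 differed by -0.33 in LnC and Glyctk by -0.34 in L-E.

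**Figure D4:**
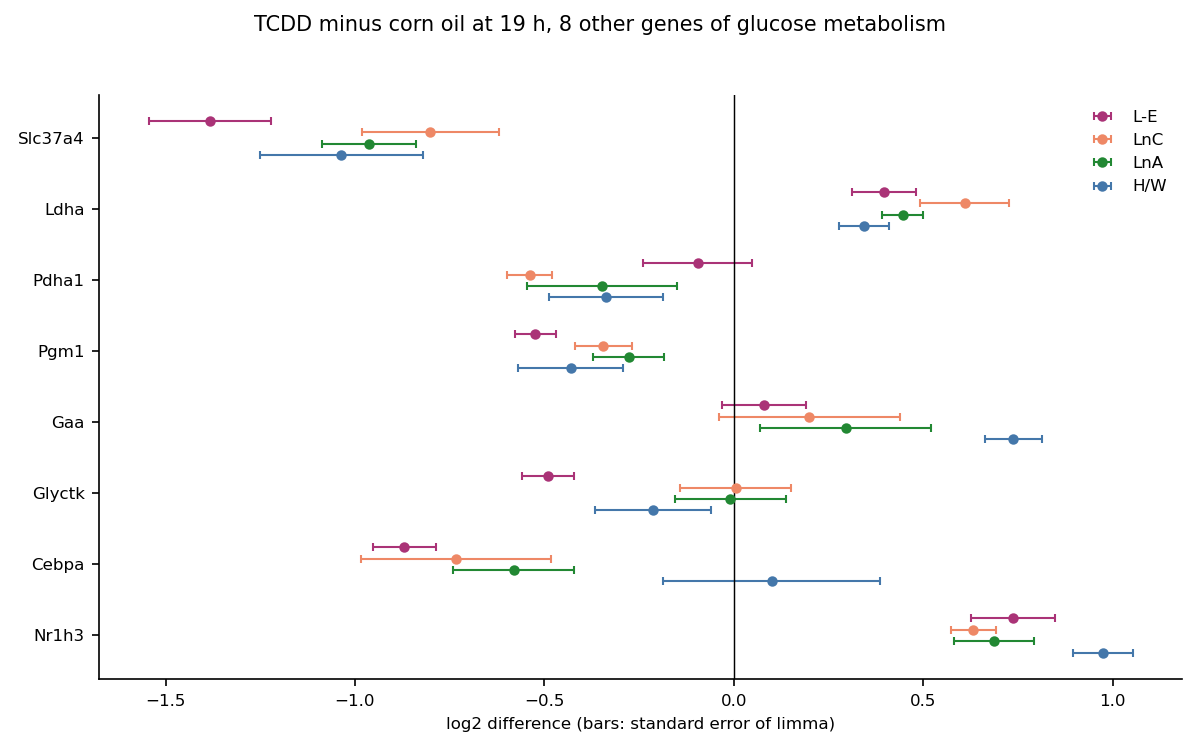
TCDD minus corn oil difference in log2 signal at 19 h (horizontal axis) of 8 of the 10 other genes called in at least 1 strain/line (Sds and Tiparp are not drawn), 1 point per strain/line with the standard error from limma on either side as a bar. Slc37a4 lies between -1.38 and -0.80 and Ldha between 0.34 and 0.61 in all 4, while Glyctk lies between -0.49 (L-E) and 0.0045 (LnC).

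Genes of the fed and fasted state were set beside these results because intake was free. Of 7 measured genes known to rise in fasting, 0 were called in any strain/line by limma. Of the 7, those higher on average numbered 6 for L-E and LnC alike, 4 for LnA and 2 for H/W. Pdk4, the kinase that shuts off pyruvate dehydrogenase, differed by 1.76 in L-E (limma adjusted p = 0.249) and 1.51 in LnC (limma adjusted p = 0.0492). Its differences were 1.15 in LnA (limma adjusted p = 0.0279) and 0.69 in H/W. Angptl4, an inhibitor of lipoprotein lipase on the same list, lay the other way, at -1.56 for L-E, -1.16 for LnC, -2.70 for LnA (limma adjusted p = 0.0373) and -1.51 for H/W. Igfbp1, also on that list, differed by 0.61 for L-E, 2.06 for LnC, 1.99 for LnA and -0.066 for H/W. Of 9 genes known to rise after a meal, Elovl6, a fatty acid elongase, was the 1 called, higher by 3.53 in L-E (limma adjusted p = 0.000931). Elovl6 differed by 1.69 for LnC (limma adjusted p = 0.042), 2.34 for LnA (limma adjusted p = 0.257) and 1.05 for H/W (limma adjusted p = 0.595). Me1, on the same list, differed by 2.01 for L-E (limma adjusted p = 0.0349) and 1.74 for H/W (limma adjusted p = 0.0351). Its differences were 1.06 for LnC and 2.21 for LnA. Of the 9, those higher on average numbered 5 for L-E and LnC alike, 6 for LnA and 3 for H/W. The part of food intake in the Slc2a2, Pc and Pck1 values was not tested.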

How the data were processed

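The deposited values were log2 signals per probe set, made by the authors with GCRMA (background by probe sequence, quantile normalization and summary over probes). Per the submitters' processing notes this used the GCRMA package 2.4.1 with affy 1.10.0 under R 2.3.1. The study's methods describe RMA with another probe set definition, which was not repeated here. The deposited scanner text records, of no numeric scale (per the file headers), served for chip type and scan day. Of 15923 probe sets, 57 controls were left out. Of the remaining 15866, 12783 had 1 gene symbol, 312 several and 2771 none, and of those with 1 symbol 12748 had an Entrez number in the RefSeq table, with 0 changed symbols. Where a gene had several probe sets, the brightest on average over the 32 arrays at 19 h stood for it. The 40 arrays were grouped by the labels.

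Comparisons were fitted with limma 3.58.1 (lmFit and eBayes, R 4.3.3) within the groups compared, interactions over the groups involved, with two-sided p-values adjusted by Benjamini-Hochberg over all 10411 genes and the study's threshold of 0.01. The script was tested on simulated data. The precision is limited by 4 rats per group. Named were the members, the 3 genes most like each member called at 19 h, and the genes of 5 lists called in at least 1 strain/line. The members, lists and tests were chosen with earlier results of these data known. Fits of the G6pc1 probe sets over all 15866 probe sets were added after the data were seen. Alternatives were another choice of probe set, a filter on dim genes, 2 further normalizations, a variance trend, the threshold, 1 fit over all groups, the replicate number or scan day as a block, and each array left out. The labels number the rats alike in each group. Over 2245 variable genes same-numbered LnA rats of both treatments deviated together (r = 0.119 to 0.164), so a pairing by number is possible in LnA. The fits reported first took no pairing, and the replicate block was used among the alternatives alone. No other comparison had every correlation over 0.1. Promoter windows were read from RefSeq (GRCr8) and figures drawn with matplotlib 3.10.9.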

Additional observations from a re-analysis of the deposited data

Results flagged for a closer look

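In 6 of 70 sets of 4 values (7 probe sets of the members in each of 10 groups), 1 rat stood apart from the others by Dixon's test. Its gap to the nearest rat over the range of the group was above the 95% critical value for 4, where chance gives about 1 in 20. The same rats recur in the 7 sets of a group, so the 70 are not independent and the count cannot be set against that rate. Fbp1 in LnA corn oil rats had a ratio of 0.925, with rat 1 high. Pck1 in L-E rats 3 h after TCDD had 0.926, with rat 3 low. Pc in LnC corn oil rats had 0.913, with rat 4 high, and in LnA corn oil rats 0.835, with rat 4 low. Pklr (the brighter probe set) had 0.853 in L-E rats 19 h after TCDD, with rat 2 low, and 0.936 in H/W rats 3 h after TCDD, with rat 1 high. The low Pck1 value of L-E rat 1 at 19 h after TCDD did not pass this test.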

How the results depend on the processing

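Over alternatives other than leaving out an array, 83 of 96 member counts stayed within 1.5 times the reported count and 13 moved. At an adjusted p under 0.05 the count was 2 in L-E (Pc and Slc2a2), 1 in LnC (Pc), 2 in LnA (Pc and Slc2a2), 1 in H/W (Fbp1) and 1 between the strains at 3 h (Pklr). Without the dimmest 40% of genes it was 2 in L-E and 2 in LnA, and with the variance trend 2 in LnA (Pc and Slc2a2 each time). In 1 fit over the 8 groups it was 2 in L-E and 2 in LnC, again Pc and Slc2a2. With the replicate block it was 0 in LnA, where every correlation of same-numbered rats was over 0.1, and 0 for 19 against 3 h in L-E and in H/W, where that was not so. The counts of the other 8 comparisons were as reported. With 1 array left out the count ran from 0 to 1 in L-E, from 2 to 4 for 19 against 3 h in H/W and from 0 to 1 between the strains at 3 h, and in 131 of 136 cases it stayed within 1.5 times. The direction of single values turned under 1 of 720 other alternatives: Pklr in LnC was -0.033 with the mean of its probe sets. With 1 array left out it turned in 17 of 800 cases, none of them a called value. The ranges were -0.37 to 0.24 for Pfkfb1 in L-E and -0.17 to 0.39 in LnA, -0.33 to 0.58 for Pklr in LnC and -0.50 to 0.12 in LnA, and for the dimmer Pklr probe set -0.055 to 0.62 (L-E), -0.72 to 0.44 (LnC) and -0.71 to 0.0079 (LnA). For the probe set with a G6pc1 accession they were, for L-E -0.75 to 0.27, for LnC -0.33 to 0.45, for LnA -0.18 to 0.54 and for H/W -0.88 to 0.15. The cause was not tested. A scan day block could not be fitted to the corn oil groups, since LnA and LnC had a day of their own. With 4 rats per group a call at 0.01 often rested on each of them, and arrays give no count from which a floor of detection could be set.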
